A study of Mus musculus with 39 samples.

Results

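The genes described are C1qa, C1qb, C1qc, C3, C4b, C3ar1, C5ar1, Itgam and Itgb2, 9 complement genes chosen by symbol from 46333 rows of the female count table and 54532 rows of the male table. All 9 were listed once in each table and passed the filter on low counts in every comparison. The samples were CD11b-bead isolated microglia from the cerebrum of wild-type (WT, C57Bl6) and 5XFAD mice, a line that carries familial Alzheimer's disease transgenes driven by the neuronal Thy1 promoter. The study's methods describe a cross of WT females with males of the 5XFAD line (B6SJL-Tg). The mice breathed normoxic air (NX, 21% O2) or chronic intermittent hypoxia (CIH, down to 6.5% O2 at 90-second intervals for 8 hours a day, per the labels). The study's methods describe a slightly lower oxygen level and a longer daily exposure, so the exact dose is uncertain. Exposure began at 4 months of age, and the females were 10 months old and the males 8 months old at collection. Each of the 4 genotype and treatment groups of a sex held 5 libraries, except the female WT NX group with 4, giving 39 libraries. The sexes differed in age, length of exposure and gene models and were deposited in separate tables, so they were not tested against each other.

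Complement is a cascade of secreted proteins that tag surfaces for removal by phagocytes. C1q starts the classical branch, C4 and C3 are cleaved in turn and their fragments are deposited, and small released fragments act on receptors of myeloid cells. In the brain microglia are the main source of C1q, and C1q, C3 and the microglial receptor CR3 are known for their part in the removal of synapses. CR3 is the pair of Itgam (CD11b, also the antigen on which the cells were isolated) and Itgb2 (CD18).

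The C1q genes lie side by side on chromosome 4 in the mouse build GRCm38, with C1qa at chr4:136895917-136898803, C1qb at chr4:136880129-136886187 and C1qc at chr4:136889804-136893065, all on the minus strand. C3 is at chr17:57203970-57228136 on the minus strand. RefSeq promoter windows (250 bases before to 50 after the gene start, GRCm38.p6) were found for 6 of the 9 genes. They are shown for C1qb and C1qc and for C3, the member with the highest fold change between genotypes. The capitals mark AGGAAGT, a core recognised by ETS factors such as PU.1, in C1qb and C1qc, and TTGCGNAA, a C/EBP-type core, in C3, both searched on either strand with motifs chosen with the sequences at hand. The windows are chr4:136886151-136886450, chr4:136892865-136893164 and chr17:57228087-57228386, all read on the minus strand.
C1qb: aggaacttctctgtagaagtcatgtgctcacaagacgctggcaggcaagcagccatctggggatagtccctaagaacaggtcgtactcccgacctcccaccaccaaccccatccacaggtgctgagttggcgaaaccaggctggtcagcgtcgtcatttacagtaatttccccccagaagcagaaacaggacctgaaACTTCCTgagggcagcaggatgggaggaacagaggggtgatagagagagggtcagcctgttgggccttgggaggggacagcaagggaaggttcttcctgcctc
C1qc: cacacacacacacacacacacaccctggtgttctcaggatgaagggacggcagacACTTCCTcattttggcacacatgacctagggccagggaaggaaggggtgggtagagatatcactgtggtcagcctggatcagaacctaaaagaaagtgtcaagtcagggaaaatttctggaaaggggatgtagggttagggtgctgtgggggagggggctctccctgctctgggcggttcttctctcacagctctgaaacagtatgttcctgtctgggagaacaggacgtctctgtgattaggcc
C3: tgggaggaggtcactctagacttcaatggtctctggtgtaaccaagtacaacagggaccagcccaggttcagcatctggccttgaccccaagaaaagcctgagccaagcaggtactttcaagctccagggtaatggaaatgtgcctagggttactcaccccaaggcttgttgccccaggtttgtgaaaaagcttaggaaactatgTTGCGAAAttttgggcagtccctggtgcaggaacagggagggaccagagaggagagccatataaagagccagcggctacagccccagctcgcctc
AGGAAGT was found in 3 of the 6 windows (C1qb, C1qc and C5ar1) and in 9.35% of all 32851 promoter windows. TTGCGNAA was found in C3 alone among the 6 and in 0.798% of all windows. The interferon-stimulated response element core, TTCNNNGAA and ACGTG were in none of the 6 and in 3.44%, 8.3% and 19.6% of all windows. A match describes the letters of the window and not a bound site.

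Library totals ran from 14731683 to 25906121 counts in females and from 13457293 to 23095627 in males. All 11 microglial markers had counts in every library, with summed levels of 25667 to 40932 CPM (counts scaled to library size, with TMM normalisation). Summed levels of 8 astrocyte markers reached 999 CPM and those of 11 neutrophil markers 1299 CPM. Some libraries stood apart from their groups. The study's methods report 1 female normoxia sample that principal components marked as an outlier in several of its comparisons. They do not say which sample it was or whether it is among these libraries. In the female 5XFAD NX library 4 the 12 disease-associated microglia genes summed to 2582 CPM, against 23474 to 46869 in the other 4 libraries of that group, and its first principal component lay among the WT libraries. The male 5XFAD NX libraries 4 and 5 had first component values of -2.2 and -3.9, against 78.9 to 80.0 in the other 3, although their disease-associated genes stayed above those of every WT library. The female WT NX library 1 had a neutrophil marker sum of 243 CPM, against 42.5 to 76.2 in the other 3. In bulk libraries, fewer cells of a type and less RNA per cell cannot be told apart.

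The C1q chains were by far the most abundant of the 9 genes. Per kilobase of gene model, C1qa had a median level of 3915 CPM in females and 5337 CPM in males, and C3 a median of 8.40 and 3.25 CPM. The C1q genes together took 0.840 to 1.46% of all counts in females and 1.03 to 2.71% in males. Their log2 levels moved together across libraries (Pearson's r 0.952 to 0.982 over 19 female libraries and 0.989 to 0.994 over 20 male libraries), a description of libraries that share depth and genotype. C3 was counted 81 to 1492 times per female library and 52 to 670 times per male library.

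**Figure D1:**
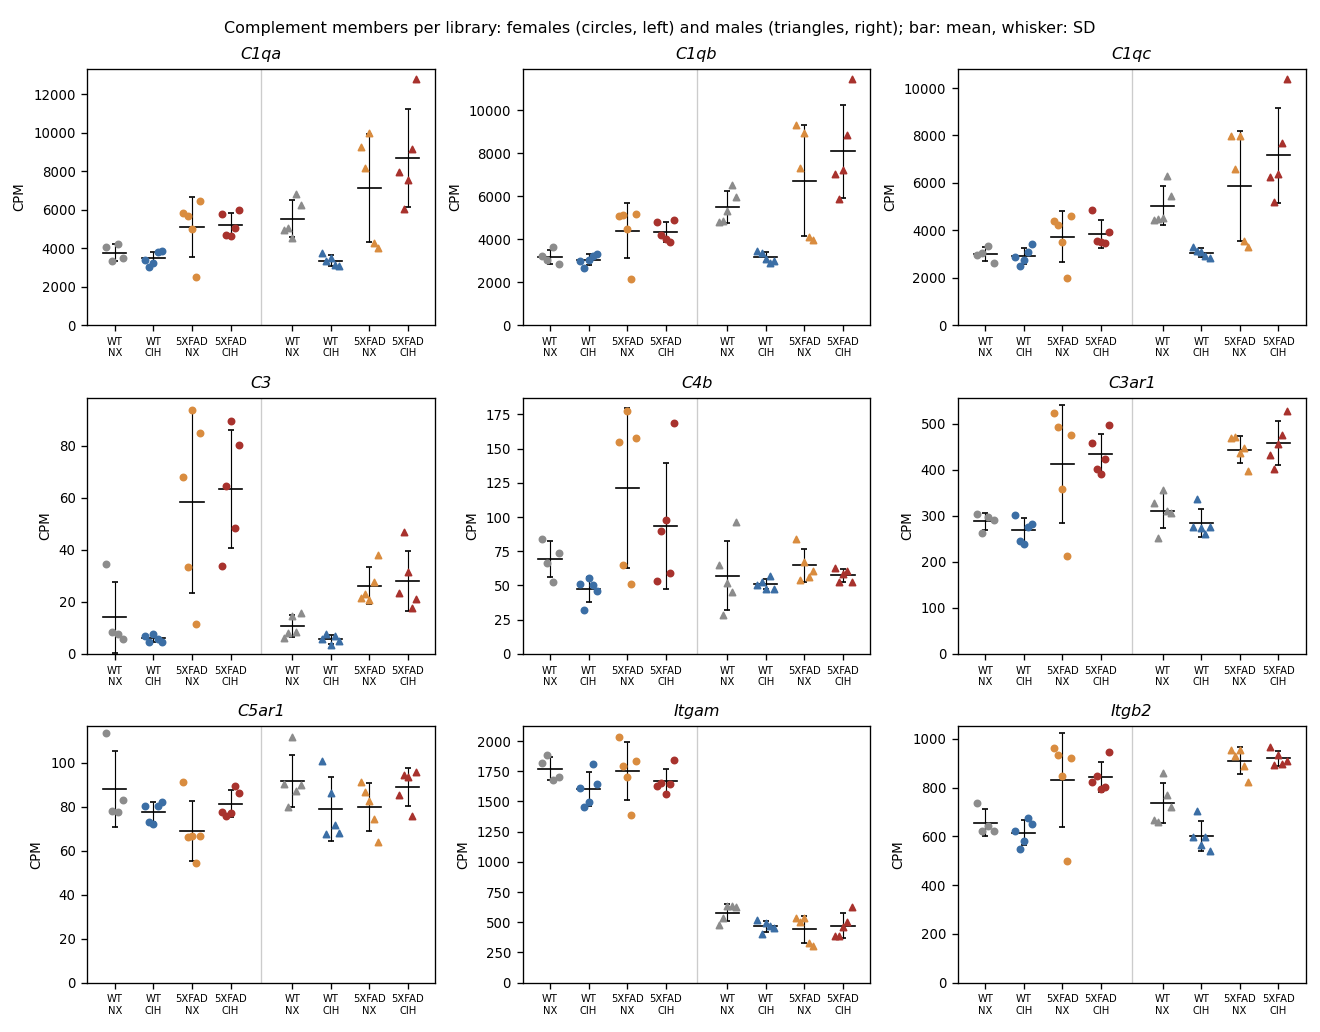
TMM-scaled CPM of each of the 9 genes in every library, by genotype and treatment, with females as circles on the left and males as triangles on the right, and the mean and SD in black. C1qa in the 5 male WT CIH libraries lies at 3051 to 3769 CPM, below all 5 male WT NX libraries at 4532 to 6841 CPM.

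The first question is how 5XFAD microglia differed from WT under normoxia. In females none of the 9 genes passed edgeR's quasi-likelihood test at an adjusted p of 0.05, where 13.9% of all 14513 genes tested did, although 8 of the 9 fold changes were positive. Without the female 5XFAD NX library 4, 7 of the 9 rose, where 21.8% of all 14149 genes tested rose. In males C3 and C3ar1 rose and the other 7 did not pass, where 10.4% of 14834 genes rose.

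C1qa in female WT NX libraries was 4042, 3355, 4236 and 3472 CPM, and in 5XFAD NX libraries 5842, 5690, 5002, 2490 and 6452 CPM. The low value is library 4, and the other 4 lie above every WT library. The log2 fold change was 0.44 (SE 0.23, edgeR adjusted p = 0.209). It was 0.59 with edgeR adjusted p = 0.0034 without library 4, and C1qb (0.63) and C1qc (0.47) then passed too, with adjusted p = 0.00134 and 0.00992.

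C1qa in male WT NX libraries was 4968, 5062, 4532, 6841 and 6253 CPM, and in 5XFAD NX libraries 9264, 8185, 9993, 4252 and 4012 CPM. The 5XFAD group was split, with libraries 4 and 5 below the WT range and the others above it. Genes of at most 1500 bases had median deviations of -0.118 and -0.158 log2 CPM from their mean over the groups in libraries 4 and 5, and of 0.279 to 0.361 in the other 3, and the part of this in the C1q levels was not tested. The log2 fold change was 0.38 (SE 0.25, edgeR adjusted p = 0.351), and 0.74 (adjusted p = 0.000315) without libraries 4 and 5, an alternative chosen after the data were seen. C1qb, C1qc and Itgb2 also passed then, so that 6 genes rose in all, where 17.9% of all 14299 genes tested rose.

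C3, the central component on which the branches of the cascade converge, was the member with the highest fold change. In male WT NX libraries C3 was 6.18, 8.21, 14.4, 8.49 and 15.8 CPM, and in 5XFAD NX libraries 21.6, 22.9, 20.8, 27.5 and 38.2 CPM. Every 5XFAD library was above every WT library, libraries 4 and 5 included, and the log2 fold change was 1.31 (SE 0.27, edgeR adjusted p = 0.00443). Gfap, an astrocyte gene, was 191 to 738 CPM in these 5XFAD libraries and 0 to 0.608 CPM in WT NX. The sum of 8 astrocyte markers, Gfap among them, was 370 to 999 CPM against 135 to 189 CPM. Of the 8, 3 were called higher and 1 lower, where 10.4% of all genes rose and 7.37% fell. The part of astrocyte RNA was not tested. In this comparison 8.39% of all genes were higher in 5XFAD with groups that did not overlap. In females C3 was 34.6, 8.23, 7.55 and 5.69 CPM in WT NX and 68.0, 33.6, 93.9, 11.3 and 85.0 CPM in 5XFAD NX. The groups overlapped through WT library 1, which lay above 5XFAD libraries 2 and 4. WT library 1 and 5XFAD library 4 had raised neutrophil marker sums, of 243 and 249 CPM against 42.5 to 76.2 and 10.8 to 62.9 CPM in the other libraries of their groups. WT library 1 also had a higher sum of disease-associated genes, at 9096 CPM against 3211 to 4482 CPM, and Gfap was 1.66 CPM in 5XFAD library 4, against 99.7 to 193 CPM in the other 5XFAD NX libraries and 0.390 to 1.54 CPM in WT NX. The sum of 8 astrocyte markers was 128 CPM in that library, against 255 to 366 CPM in the other 4 and 171 to 230 CPM in WT NX. Of the 8, 1 was called higher and 1 lower in female 5XFAD NX, where 7.26% of all genes rose and 6.61% fell. The part of these cell types in the C3 levels was not tested. The fold change was 2.05 on the log2 scale (SE 0.68, edgeR adjusted p = 0.0689), 3.02 without that WT library (adjusted p = 0.0375) and 2.28 without that 5XFAD library (adjusted p = 0.00781).

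C3ar1, the receptor for the C3a fragment, rose in male 5XFAD NX microglia by 0.53 on the log2 scale (SE 0.11, edgeR adjusted p = 0.00521). The 5 male 5XFAD NX libraries ran from 397 to 470 CPM and the WT NX libraries from 252 to 356 CPM, with no overlap. C5ar1, the receptor for C5a, had a log2 fold change of -0.19 in males and -0.33 in females, and neither passed the test (edgeR adjusted p = 0.370 and 0.134). Itgam had log2 fold changes of 0.01 in females and -0.38 in males, with edgeR adjusted p = 0.966 and 0.165.

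The second question is the same genotype contrast under CIH. In females 7 of the 9 genes rose in 5XFAD CIH against WT CIH, where 26.2% of all 14911 genes tested rose, and C5ar1 and Itgam did not pass. In males 6 rose (C1qa, C1qb, C1qc, C3, C3ar1 and Itgb2), where 25.3% of 14793 genes rose. The median log2 fold change of the 9 genes was 0.52 in females and 0.72 in males, beside -0.02 and -0.06 over all genes tested. With the study's added threshold of 1 on the log2 scale, C3 alone was called in females, where 8.83% of all genes were called higher, and C3 and the C1q genes in males, where 11.8% of all genes were called higher.

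Female C1qa was 3396, 3033, 3244, 3814 and 3855 CPM in WT CIH and 5790, 4667, 4638, 5040 and 5963 CPM in 5XFAD CIH. The groups did not overlap, and 18.9% of all genes were higher in this way in this comparison, and the log2 fold change was 0.59 (SE 0.09, edgeR adjusted p = 0.00016). C1qb had 0.52 (adjusted p = 0.000199) and C1qc 0.41 (edgeR adjusted p = 0.00703). C1qc no longer passed with all 4 groups in one fit (edgeR adjusted p = 0.0547) or with library size alone in place of TMM (adjusted p = 0.0838), nor in limma on log2(FPKM + 1) or log2(FPKM + 0.1) (limma adjusted p = 0.214 and 0.218). The female FPKM were divided by the library total, so the limma fits share the scaling by library size alone.

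Male C1qa was 3769, 3340, 3470, 3140 and 3051 CPM in WT CIH and 7969, 6039, 7565, 9171 and 12821 CPM in 5XFAD CIH. Every 5XFAD library was above the WT range, which held for 18.6% of all genes in this comparison, and the spread within 5XFAD was wide. The log2 fold changes of C1qa, C1qb and C1qc were 1.41, 1.39 and 1.26, with edgeR adjusted p = 6.32e-06, 3.49e-06 and 1.01e-05. C1qa and C1qb are short genes, of 1040 and 1088 bases in the male gene model, and genes of at most 1500 bases had a median log2 fold change of 0.41 in this contrast, against -0.24 for genes over 5000 bases. With the trend on gene length removed, an alternative chosen after the data were seen, the values were 0.82, 0.82 and 0.96, and all 3 still passed (edgeR adjusted p = 6.88e-06, 2.25e-06 and 2.06e-06).

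C3 in female CIH libraries was 6.99, 4.73, 7.74, 5.87 and 4.53 CPM in WT and 33.9, 64.7, 89.4, 48.4 and 80.2 CPM in 5XFAD. Every 5XFAD library was above the WT range, and the log2 fold change was 3.41 (SE 0.25, edgeR adjusted p = 1.47e-07). In males under CIH C3 was 5.56, 7.77, 3.36, 6.85 and 4.84 CPM in WT and 23.6, 46.7, 31.5, 17.6 and 21.2 CPM in 5XFAD. These groups did not overlap either, with a log2 fold change of 2.34 (SE 0.28, edgeR adjusted p = 1.01e-05). The neutrophil marker sum was 50.8 to 120 CPM in female WT CIH and 21.6 to 83.8 CPM in 5XFAD CIH. The sum of 8 astrocyte markers was higher in female 5XFAD CIH, at 224 to 654 CPM against 159 to 199 CPM. Of the 8, 4 were called higher and 1 lower, where 26.2% of all genes rose and 25.7% fell. Gfap was 93.9 to 410 CPM in female 5XFAD CIH libraries and 0.260 to 1.32 CPM in WT CIH, and 101 to 427 CPM against 0.126 to 1.73 CPM in males. In males the sum of the 8 astrocyte markers was 221 to 614 CPM in 5XFAD CIH and 160 to 235 CPM in WT CIH. Of the 8, 1 was called higher and 2 lower, where 25.3% of all genes rose and 23.7% fell, and the median log2 fold change was 0.10. The part of astrocyte RNA in the C3 and C4b values was not tested.

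C4b, the C4 gene cleaved after C1 is activated, passed the test in females under CIH and did not pass in the male comparisons, and the difference between the sexes was not tested. Female C4b was 51.3, 32.3, 55.5, 50.3 and 45.8 CPM in WT CIH and 53.2, 89.5, 97.5, 58.8 and 169 CPM in 5XFAD CIH. The groups overlapped through a single 5XFAD library, at 53.2 CPM, and the log2 fold change was 0.99 (SE 0.26, edgeR adjusted p = 0.00604). Male C4b ran from 47.6 to 56.9 CPM in WT CIH and from 52.7 to 62.9 CPM in 5XFAD CIH, with a log2 fold change of 0.20 (SE 0.09, edgeR adjusted p = 0.0805). It passed without 5XFAD CIH library 5 (0.24, edgeR adjusted p = 0.0473) and with the trend on gene length removed (0.31, edgeR adjusted p = 0.00674). C4a is a near-identical copy of C4b, and how reads common to both were counted is not given in the sources used here, so the counts of C4b are uncertain.

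C3ar1 rose by 0.70 in females and 0.72 in males on the log2 scale under CIH (edgeR adjusted p = 1.01e-05 and 3.18e-05). Female C3ar1 was 238 to 302 CPM in WT CIH and 391 to 496 CPM in 5XFAD CIH, and male C3ar1 260 to 336 CPM and 402 to 528 CPM. Neither pair of groups overlapped. Itgb2, the beta chain of CR3, rose by 0.46 and 0.65 (edgeR adjusted p = 7.01e-05 and 3.33e-05). Its partner Itgam had log2 fold changes of 0.06 and 0.05, with edgeR adjusted p = 0.484 and 0.779, and turned negative with library size alone in place of TMM (-0.14 and -0.34, edgeR adjusted p = 0.0446 and 0.0147).

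**Figure D2:**
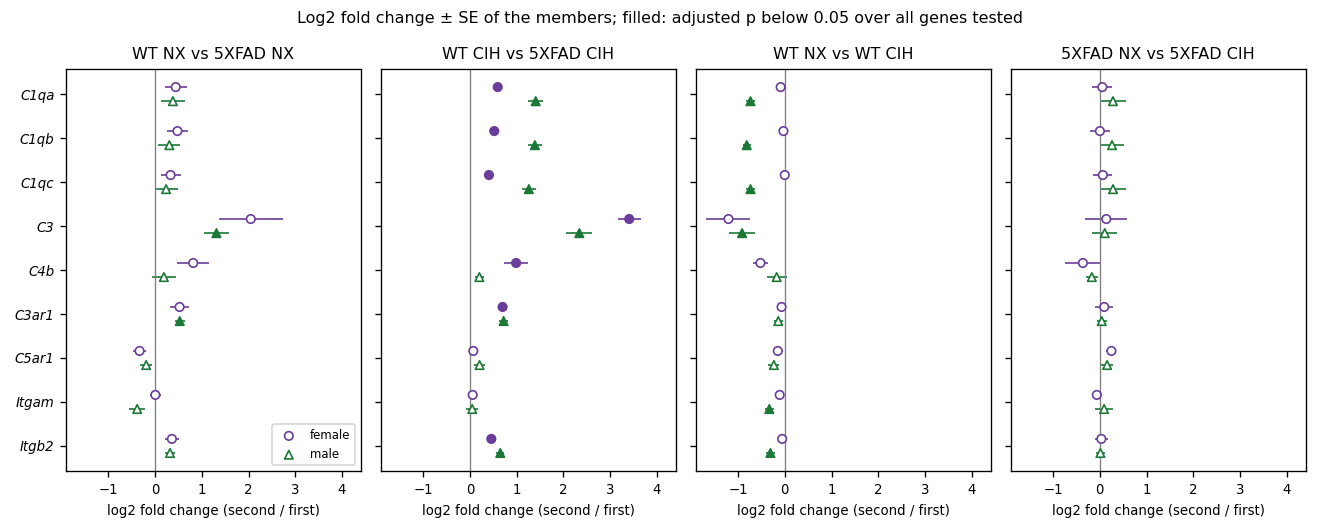
Log2 fold change of each gene (points, with the SE as bars) in the 4 pairwise comparisons, second group over first, for females (circles) and males (triangles), with filled points past an adjusted p of 0.05. C3 lies farthest to the right in both genotype contrasts, at 3.41 in females and 2.34 in males under CIH, and no point is filled for 5XFAD NX against 5XFAD CIH.

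The third question is what CIH did within a genotype. In WT males 6 of the 9 genes fell under CIH (C1qa, C1qb, C1qc, C3, Itgam and Itgb2), where 15% of all 14983 genes tested fell. None of the 6 changed by more than 1 on the log2 scale, where 0.881% of all genes fell by more. With all 4 groups in one fit none of the 9 passed, nor did any other gene. In WT females none of the 9 passed, and no gene of 14583 did in edgeR's quasi-likelihood test (0% called, 565 at an unadjusted p under 0.05, and 1 gene called by DESeq2).

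Male C1qa fell from 4968, 5062, 4532, 6841 and 6253 CPM in WT NX to 3769, 3340, 3470, 3140 and 3051 CPM in WT CIH. All 5 CIH libraries were below all 5 NX libraries, as were those of C1qb and C1qc, where 8.43% of all genes were lower in CIH without overlap. The log2 fold changes were -0.74, -0.81 and -0.73 (SE 0.10, 0.09 and 0.10), with edgeR adjusted p = 0.000317, 0.000266 and 0.000266. They were -0.74, -0.82 and -0.74 with all 4 groups in one fit, with edgeR adjusted p = 0.0627, 0.0568 and 0.0607.

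Gene length moved with this result. Genes of at most 1500 bases had a median log2 fold change of -0.40 between male WT NX and WT CIH, and genes over 5000 bases one of 0.18. With the trend on gene length removed, C1qa, C1qb and C1qc had log2 fold changes of -0.35, -0.44 and -0.45, with edgeR adjusted p = 0.00446, 0.00095 and 0.00125. The trend at the length of C1qa was -0.40, and the part of RNA quality in the result was not tested.

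**Figure D3:**
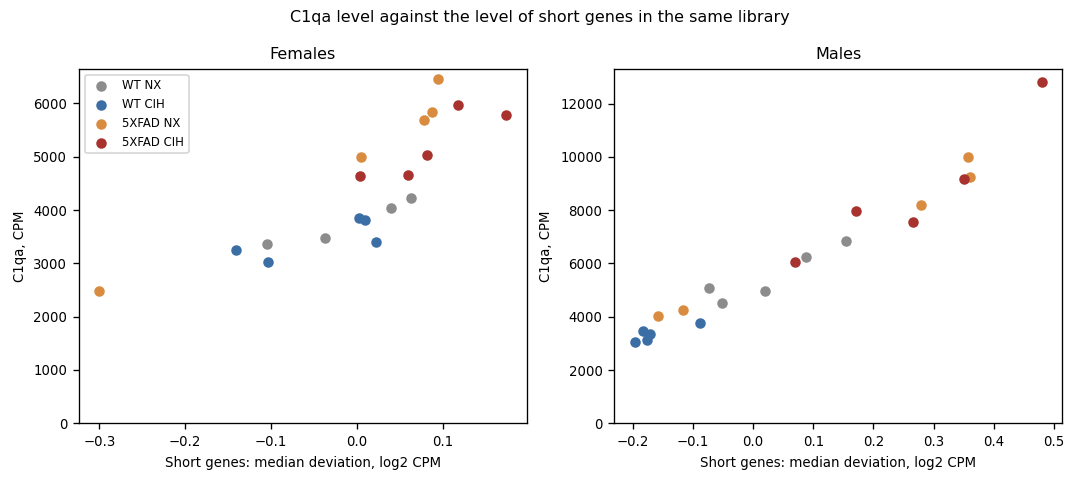
C1qa level in CPM against the median deviation, in log2 CPM, of genes of at most 1500 bases from their mean over the groups, 1 point per library, coloured by group, with females on the left and males on the right. The 5 male WT CIH libraries, with deviations of -0.197 to -0.088, sit at the lower left, and the female 5XFAD NX library 4 is the leftmost female point at -0.300.

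Male C3 had a log2 fold change of -0.91 between WT NX and WT CIH (SE 0.27, edgeR adjusted p = 0.0201). The WT NX libraries 3 and 5, at 14.4 and 15.8 CPM, were the highest, and their neutrophil marker sums were 861 and 1246 CPM, against 238 to 441 CPM in the other 3 and 113 to 339 CPM in WT CIH. C3 no longer passed without library 3 (-0.77, edgeR adjusted p = 0.0565) or without library 5 (-0.74, edgeR adjusted p = 0.0643). It did not pass without WT CIH library 3 either (adjusted p = 0.0534), and the part of neutrophil RNA was not tested. Itgam and Itgb2, which neutrophils and monocytes also express, had log2 fold changes of -0.33 and -0.31 (edgeR adjusted p = 0.0193 and 0.0207). Of 11 neutrophil markers 6 fell in this comparison (median log2 fold change -1.43), as did 3 of 4 monocyte markers (median -1.36), and their part in these values was not tested. Itgam no longer passed without WT CIH library 2 (edgeR adjusted p = 0.0524), and Itgb2 without WT NX library 3 (0.0539) or WT CIH library 3 (0.0577). Neither passed with library size alone in place of TMM (edgeR adjusted p = 0.0720 and 0.0684), and Itgb2 did not with the trend on gene length removed (-0.17, edgeR adjusted p = 0.185) or with no filter on low counts (adjusted p = 0.0683).

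In 5XFAD mice no member passed the test between NX and CIH, with edgeR adjusted p of 0.995 or above in males and 0.998 or above in females. No gene of 14578 in females (0% called, 470 at an unadjusted p under 0.05, none by DESeq2) or of 14334 in males (0% called, 473 at an unadjusted p under 0.05, 1 by DESeq2) passed edgeR's test. Male C1qa was 6039 to 12821 CPM in 5XFAD CIH and 4012 to 9993 CPM in 5XFAD NX, ranges that overlapped widely. Its log2 fold change was 0.28, with an approximate 95% interval of -0.26 to 0.82. It turned to -0.07 without the 5XFAD NX libraries 4 and 5 (edgeR adjusted p = 0.938), and those of C1qb and C1qc turned from 0.26 and 0.28 to -0.07 and -0.07.

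Whether the genotype contrast differed between NX and CIH was tested as an interaction. In males the interaction of C1qa, C1qb and C1qc was 1.02, 1.08 and 1.02 on the log2 scale (SE 0.32, 0.30 and 0.31), with edgeR adjusted p = 0.118, 0.117 and 0.117. None of 15813 genes passed in that test (0% called, 3857 at an unadjusted p under 0.05, and 945 called by DESeq2). The trend of the interaction values at the length of these genes was 0.50, 0.49 and 0.32. In the fit with each library's own trend on gene length removed the values were 0.66, 0.72 and 0.77 (edgeR adjusted p = 0.0966, 0.087 and 0.0876). The 3 C1q genes were called by DESeq2 (adjusted p = 0.0342, 0.0262 and 0.0313) and by edgeR without the male 5XFAD NX library 1. Without the male 5XFAD NX libraries 4 and 5 the values were 0.66, 0.73 and 0.66, with edgeR adjusted p = 0.379 for each. In females the same interactions were 0.13, 0.02 and 0.06, and no gene of 15582 passed (0% called, 589 at an unadjusted p under 0.05, none by DESeq2).

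C5ar2, the second C5a receptor, which does not signal through G proteins, fell in 5XFAD in all 4 genotype comparisons, and C5ar1 passed in none of them. C5ar1 did pass in females under NX with all 4 groups in one fit (-0.33, edgeR adjusted p = 0.0312) and in limma, without TMM scaling, on log2(FPKM + 1) or log2(FPKM + 0.1) (limma adjusted p = 0.0444 and 0.0431). In males it passed under NX with library size alone in place of TMM (-0.39, edgeR adjusted p = 0.0266) and under CIH, in the other direction, without WT CIH library 1 (0.31, edgeR adjusted p = 0.0300). Female C5ar2 was 111, 114, 117 and 130 CPM in WT NX and 69.4, 61.6, 60.4, 74.5 and 64.6 CPM in 5XFAD NX, a log2 fold change of -0.80 (SE 0.11, edgeR adjusted p = 0.0117). Library 4, which stood apart in its sum of disease-associated genes, was at the 5XFAD level in C5ar2. The log2 fold changes were -0.74 in females under CIH, -0.77 in males under NX and -0.88 in males under CIH, with edgeR adjusted p = 6.23e-06, 0.00252 and 0.000564. The groups did not overlap in any of the 4, where 12.7% and 18% of all genes in females and 7.59% and 17.7% in males (NX and CIH) were lower in 5XFAD in this way. Markers of border macrophages (7 genes, among them Mrc1 and Cd163) also fell, 7 of 7 under NX and 7 of 7 under CIH in females (median log2 fold changes -1.34 and -1.22) and 6 of 7 and 4 of 7 in males (-1.12 and -0.90). Of the 11 microglial markers 5 fell and 0 rose under NX in females, and 8 fell and 1 rose under CIH. In males 7 fell and 0 rose under NX, and 6 fell and 3 rose under CIH. Over all genes 6.61% and 25.7% fell in females and 7.37% and 23.7% in males (NX and CIH). The part of border macrophages and microglia in the C5ar2 values was not tested.

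Itgax (CD11c), the alpha chain of CR4, which pairs with the same Itgb2 as Itgam does, rose by 4.15 to 5.32 on the log2 scale in the 4 genotype comparisons. Male Itgax was 30.0 to 41.7 CPM in WT NX and 843 to 1058 CPM in 5XFAD NX. Female Itgax was 107, 28.3, 42.8 and 53.6 CPM in WT NX and 1534, 1344, 660, 51.3 and 1595 CPM in 5XFAD NX, with library 4 at the WT level. The female NX value had an edgeR adjusted p of 0.021 and did not pass in 6 of the 9 fits that left out 1 library.

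Within a library the C3ar1 to C5ar1 ratio per kilobase was 1.56 to 2.24 in the 9 female WT libraries and 2.28 to 4.35 in the 10 female 5XFAD libraries, with no overlap. In males it was 1.63 to 2.96 in WT and 2.54 to 3.75 in 5XFAD, which overlapped. The Itgb2 to Itgam ratio was 0.562 to 0.692 in female WT and 0.610 to 0.887 in female 5XFAD libraries, and 1.89 to 2.88 and 2.38 to 4.42 in males. The levels of this ratio differ between the sexes' tables, which use different gene models, and cannot be compared between them. The median count of Itgam was 28145 in female and 8110.5 in male libraries, and that of Itgb2 12777 and 12513.5. The Itgam models were 4680 and 5024 bases long. The cause of the lower male Itgam counts was not tested, so how fully the male table counts Itgam is uncertain. The ratio of C4b to C3 was lower in 5XFAD, at 0.814 to 3.36 against 1.80 to 9.69 in females and 1.02 to 3.51 against 3.13 to 12.8 in males. A ratio shows unequal change of its 2 genes and was not tested.

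**Figure D4:**
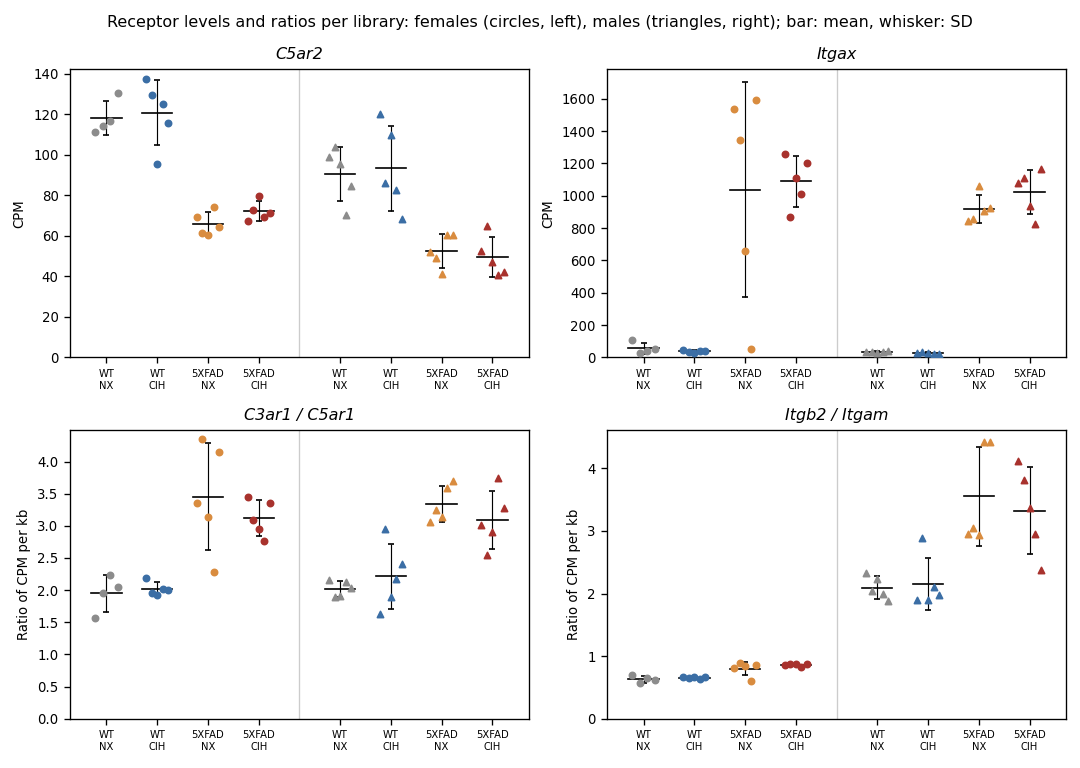
CPM of C5ar2 and Itgax, and the ratios per kilobase of C3ar1 to C5ar1 and of Itgb2 to Itgam, in every library, with females as circles on the left and males as triangles on the right, and the mean and SD in black. C5ar2 is lower in every 5XFAD group, and the lowest female 5XFAD NX point for Itgax, at 51.3 CPM, is library 4.

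Beyond the 9 genes, 53 genes of the cascade were read from lists of initiators, the alternative branch, the terminal branch, regulators and receptors. Of these, 25 to 27 passed the filter on low counts in each genotype comparison. In females under NX 2 of 25 rose and 3 fell, where 7.26% of all genes rose and 6.61% fell, and under CIH 11 of 27 rose and 4 fell, where 26.2% rose and 25.7% fell. In males under NX 4 of 26 rose and 3 fell, where 10.4% of all genes rose and 7.37% fell, and under CIH 6 of 26 rose and 3 fell, where 25.3% rose and 23.7% fell. Their median log2 fold changes were 0.09, 0.20, -0.01 and 0.20, beside -0.02, -0.02, 0.02 and -0.06 over all genes tested. Of the 7 terminal genes, which build the membrane attack complex, 1 passed the filter, C8g.

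Masp1, a protease of the lectin branch, rose in all 4 genotype comparisons, by 1.86 and 2.01 on the log2 scale in females and 2.25 and 2.40 in males (NX and CIH). The female NX call was lost without any one of 6 of the 9 libraries. Male Masp1 was 11.7 to 15.4 CPM in WT NX and 48.8 to 72.9 CPM in 5XFAD NX. C2 and Cfb, which supply the proteases of the classical and alternative convertases, rose in females under CIH, by 1.39 and 0.98 (edgeR adjusted p = 6.26e-05 and 0.00132). Among regulators, Cd46, a membrane regulator, fell by 1.10 in females under CIH and by 1.46 in males under NX, and also passed in males under CIH (edgeR adjusted p = 0.00163). Of the regulators tested, 3 of 11 rose and 1 fell in females under CIH, where 26.2% of all genes rose and 25.7% fell. In males 1 of 11 rose and 1 fell under NX, where 10.4% of all genes rose and 7.37% fell. Under CIH 2 of 11 rose and 2 fell in males, where 25.3% of all genes rose and 23.7% fell. None of 9 passed in females under NX, where 7.26% of all genes rose and 6.61% fell. Among the regulators that rose were Sez6l2, a member of the Sez6 family, by 0.85 in females under CIH and by 1.25 and 0.92 in males under NX and CIH (edgeR adjusted p = 0.0102, 0.0170 and 0.00114), and Cr1l, the rodent membrane regulator Crry, by 0.23 in females under CIH (edgeR adjusted p = 0.00966). Cfp, properdin, fell by 1.55 under NX and 1.07 under CIH in females, where its NX call was lost without any one of 8 of the 9 libraries. Cfp was 33.4 CPM in WT NX library 1, which had the raised neutrophil sum, and 6.81 to 11.8 CPM in the other 3, and without that library the log2 fold change was -0.80 (edgeR adjusted p = 0.0842).

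Calr, calreticulin, which binds C1q at the cell surface, rose by 0.65 in females under CIH and by 0.67 and 1.14 in males under NX and CIH (edgeR adjusted p = 1.96e-05, 0.0143 and 3.98e-07). In male WT mice 4 of the 26 list genes tested fell under CIH (C1ra, Itgal, C1qbp and Calr) and 1 rose (Csmd3), where 15% of all genes fell and 13.6% rose, so the share of the list that fell is near that of all genes. The list had a median log2 fold change of -0.30 beside -0.01 over all genes. The calls of C1ra, Itgal and Calr were lost without any one of 8, 6 and 7 of the 10 libraries. C1qbp, which binds the globular heads of C1q, fell by 0.64 (edgeR adjusted p = 0.000548). In 5XFAD CIH against WT CIH it rose by 0.55 in females and 1.06 in males (edgeR adjusted p = 2.98e-05 and 0.000145). Other list genes also passed in genotype contrasts. Cd93 fell by 1.51 under NX, a call lost in 7 of 9 fits without 1 library, and by 0.86 under CIH in females. Itgal and Itgad rose by 1.08 and 0.89 in females under CIH. Fcna fell by 1.31 in males under NX, and Csmd3 by 1.17 in males under CIH.

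Of 13423 genes, those with log2 levels most like C1qa across both tables (the smaller of the female and male Pearson's r) were Psmb8, Tmbim4, Sod1, Psmb6 and Itm2b, with r of 0.978 or above over 19 female and 20 male libraries. Their female gene models were 637 to 1796 bases long, against a median of 2981 bases over expressed genes, and their male models 1872 to 3970 bases against 3851. For C3 they were Pygl, Antxr2, Gas7, Cd300lb and Fgr, with r of 0.899 or above. For C4b they included Larp7, Gbp2, Aldh1b1 and Zbp1, with r of 0.628 or above.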

How the data were processed

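RNA was sequenced from CD11b-isolated microglia in 39 libraries. Per the labels and methods, the authors aligned reads with HISAT2 (version not given in the sources used here) to GRCm38/mm10 and deposited raw gene counts for each sex. They also deposited FPKM values, which the files show were divided by the library total in females and by a further library factor in males. Strand use in counting is not given in the sources used here. Genes above 1 CPM in at least 3 libraries of a comparison were tested with edgeR 4.0.16 (R 4.3.3) on the deposited counts, with TMM factors and the quasi-likelihood test, over the groups compared. P-values were Benjamini-Hochberg adjusted over all genes tested, and 0.05 was the threshold. The edgeR log2 fold changes come from its default fit, which adds a small prior count, and no other shrinkage was applied. DESeq2 1.42.0, limma 3.58.1 on log2(FPKM + 1 or 0.1), other filters and scalings, a replicate block and leaving out libraries were alternatives. In another, a smoothed trend on gene length was removed from each library as an offset in the fit. Its values therefore differ from a fold change less the trend at that length. Fits were tested on simulated data. No 2 libraries of a group agreed within sampling noise (76 pairs, lowest chi-square per degree of freedom 4.86). The study's methods call the samples of a group independent, without saying whether each is 1 mouse, so p-values measure the spread between these samples. All 9 members are named, with list genes past the threshold in a genotype comparison, the most abundant ones, and the 5 genes most like C1qa, C3 and C4b, except that some items are not reported here. Members, lists and alternatives were chosen with earlier results of these data known.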

Additional observations from a re-analysis of the deposited data

Results flagged for a closer look

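Each gene was examined in each group of 4 or 5 libraries (72 groups) for a highest or lowest library far from the rest, by Dixon's test at the 95% level, which chance alone would flag in about 1 in 20 groups. It marked 6. In the female 5XFAD NX library 4, C1qb was 2142 CPM against 4460 to 5164 in the other 4, and Itgb2 was 497 CPM against 846 to 962. In the female WT NX library 1, C3 was 34.6 CPM against 5.69 to 8.23 in the other 3, C5ar1 was 114 CPM against 77.6 to 83.0, and Itgb2 was 737 CPM against 621 to 641. In the male WT CIH library 2, C3ar1 was 336 CPM against 260 to 276 in the other 4.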

How the results depend on the processing

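Over 1871 alternative values of the members' log2 fold changes, 1803 kept their direction and side of the threshold or stayed uncalled (96 of them with a changed sign), 45 newly passed, 21 no longer passed and 2 reversed. The reversed values were Itgam under CIH with library size alone (-0.14 in females, -0.34 in males). The count of members called for female WT NX against 5XFAD NX was 0. It was 2 with DESeq2, 1 with the likelihood ratio test, 1 without the filter, 5 with all 4 groups in one fit, 1 with limma on FPKM at either pseudocount, and 0 to 7 leaving out 1 library (7 without 5XFAD NX library 4, 1 without WT NX library 1). For female WT CIH against 5XFAD CIH it was 7, and 1 with a threshold of 1 on the log2 scale added. For male WT NX against 5XFAD NX it was 2, and 1 with that threshold, 4 with library size alone, 1 with the replicate block and 6 without libraries 4 and 5. For male WT NX against WT CIH it was 6, and 0 with that threshold, 0 with all 4 groups in one fit and 4 to 7 leaving out 1 library. For the male interaction it was 0, and 3 with DESeq2, 1 with the likelihood ratio test, 4 without the filter and 0 to 3 leaving out 1 library (3 without 5XFAD NX library 1). The cause of these moves was not tested. C3 was the least counted member, at 52 to 1492 counts a library, so counting error bears on it most.

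The replicate numbers did not pair the libraries (correlations of -0.27 to 0.35 in females and -0.49 to 0.25 in males), and with the replicate block C3ar1 in male 5XFAD NX had edgeR adjusted p = 0.052. The block changed no other member's call. With it 0 genes were called lower in female WT NX against 5XFAD NX, so the calls of C5ar2 and Cfp in that comparison were lost. Counts over all genes moved by over 1.5 times for female WT NX against 5XFAD NX (2013, and 3509 with DESeq2, 1311 with library size alone, 4648 with all groups, 7 with the block and 43 to 6229 leaving out 1 library), male WT NX against 5XFAD NX (2638, and 1310 with the block, 4792 without libraries 4 and 5), and male WT NX against WT CIH (4279, and 0 with all groups, 2778 with the length trend removed). For the male interaction it was 0, and 945 with DESeq2, 248 with the likelihood ratio test, 1754 without the filter and up to 953 leaving out 1 library. It was 0 for female WT NX against WT CIH, and 1 with DESeq2 and 22 without the filter, and 0 for male 5XFAD NX against 5XFAD CIH, and 1 with DESeq2 and 1 with the likelihood ratio test. Library size alone moved the median of all genes under CIH to -0.21 in females and -0.43 in males, and the calls to 2610 higher and 6288 lower in females (3906 and 3833 with TMM) and 2205 and 6800 in males (3739 and 3509).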
